A study of Homo sapiens with 9 samples.

Results

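The genes YWHAZ, MDFIC, HCFC1, KLF13, SRCAP and TBC1D5 are those given for 6 of the 10 widest sites at which a BRG1 peak and a RUNX1 peak overlap in DND-41 cells, an established human cell line that was grown out of a T-cell acute lymphoblastic leukemia. They stand for 6 of the 6006 co-occupied sites in all, a co-occupied site being a BRG1 peak that overlaps a RUNX1 peak by at least 1 bp. Sites were ranked by the sum of the width rank of the BRG1 peak among all BRG1 peaks and that of the RUNX1 peak among all RUNX1 peaks, so the members were chosen by peak widths, which are given here as a description. Each gene was read in a window of its own span, in hg19 and rounded to whole kilobases, with 25 kb added on each side. The 6 windows add up to 1134 kb.

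Per the labels the peaks came from CUT&RUN, in which an antibody brings a nuclease to its target and the released DNA is sequenced. The BRG1, RUNX1 and H3K4me3 libraries of DND-41 cells carried no treatment label, and H3K27ac was profiled after 100 nM ACBI-1 or after DMSO, its vehicle, with the time of treatment not given in the sources used here. Each list comes from 1 library and holds positions only, so read depth is unknown, no difference has a replicate check, and no test was made. BRG1, RUNX1 and H3K4me3 after ACBI-1 were not analysed here, and these lists measure no expression. Over the genome the DMSO list held 90495 H3K27ac peaks covering 127 Mb and the ACBI list 52967 covering 70.8 Mb, so values for the members are read against that background.

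BRG1 (SMARCA4) is an ATPase of the SWI/SNF complexes, which slide and evict nucleosomes at promoters and enhancers. RUNX1 binds DNA through its Runt domain as a partner of CBFB and is a main regulator of blood and T-cell genes. H3K4me3 marks active promoters, H3K27ac marks active promoters and enhancers, and ACBI-1 causes the breakdown of both SWI/SNF ATPases, BRG1 and SMARCA2, and of PBRM1. Among the members, SRCAP is the ATPase of a remodeling complex that deposits the histone variant H2A.Z, HCFC1 is a co-regulator that brings histone-modifying enzymes to promoters, KLF13 is a zinc-finger transcription factor, and MDFIC is a regulator of transcription factors with an I-mfa domain. YWHAZ is a 14-3-3 adaptor that binds phosphorylated signalling proteins, and TBC1D5 is a GTPase-activating protein for Rab proteins in endosome and retromer traffic.

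The wide sites lay at the edge of the gene span for 5 members and deep inside it for MDFIC. At KLF13 the BRG1 peak (chr15:31618460-31619582) held the low edge of the gene span and at SRCAP it did too (chr16:30709592-30710605), which is the start of both genes on the plus strand. At TBC1D5 the BRG1 peak (chr3:17783421-17784568) held the high edge, the start of this minus-strand gene. At YWHAZ its midpoint lay 1.3 kb inside the high edge, and at HCFC1 it lay 0.8 kb beyond the high edge (chrX:153237305-153238323), toward TMEM187, the next protein-coding gene in RefSeq. At MDFIC the midpoint lay 87.7 kb from the low edge, where this plus-strand gene starts, and 9.3 kb before the high edge (chr7:114649138-114650193). These placements are as coarse as the whole kilobases of the spans.

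RefSeq promoter windows were held for 4 of the 6 genes, each of 300 bases that lie mostly before a start in GRCh38.p14, whose numbering differs from that of hg19. Those of the 3 genes whose span starts in the wide BRG1 peak are shown, each 5′ to 3′ on the gene's strand, because BRG1 and RUNX1 were called at these starts. TBC1D5 has a second window, and the one with more CpG is printed. Capitals mark TGTGG or its reverse complement CCACA, the centre of the RUNX motif. They come from chr15:31326585-31326884 (plus strand), chr16:30698921-30699220 (plus strand) and chr3:17742582-17742881 (minus strand).
KLF13 promoter: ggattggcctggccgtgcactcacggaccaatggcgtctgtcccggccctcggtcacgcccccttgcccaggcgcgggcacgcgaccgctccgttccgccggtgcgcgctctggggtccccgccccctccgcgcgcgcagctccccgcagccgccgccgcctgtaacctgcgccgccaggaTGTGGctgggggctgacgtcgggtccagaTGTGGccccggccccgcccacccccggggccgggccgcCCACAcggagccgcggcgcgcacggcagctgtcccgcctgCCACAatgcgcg
SRCAP promoter: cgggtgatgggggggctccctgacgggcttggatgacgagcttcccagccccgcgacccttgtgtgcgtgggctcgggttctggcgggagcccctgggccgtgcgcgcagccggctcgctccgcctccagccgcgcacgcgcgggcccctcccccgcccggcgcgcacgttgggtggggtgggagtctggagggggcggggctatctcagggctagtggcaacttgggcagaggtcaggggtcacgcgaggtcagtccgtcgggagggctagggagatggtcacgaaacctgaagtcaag
TBC1D5 promoter: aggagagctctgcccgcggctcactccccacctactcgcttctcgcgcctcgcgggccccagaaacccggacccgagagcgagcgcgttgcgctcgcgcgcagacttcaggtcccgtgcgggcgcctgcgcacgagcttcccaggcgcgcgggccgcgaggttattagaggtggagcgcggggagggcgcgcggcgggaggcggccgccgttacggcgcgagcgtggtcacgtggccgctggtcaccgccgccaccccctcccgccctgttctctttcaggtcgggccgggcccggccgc
The KLF13 window holds the pentamer 4 times, at bases 182, 211, 249 and 289, while the SRCAP and TBC1D5 windows hold none. Of 35116 RefSeq promoter windows of this length, 51.4% hold the pentamer at least once and 1.38% at least 4 times. The longer forms TGTGGT and TGCGGT, searched on both strands and overlapping the pentamer in the first case, were in none of the 6 windows of these 4 genes; they occur in 13.1% and 7.29% of all windows. The letters GGGCGG, read on both strands, occur 3 times in the KLF13 window, 2 times in that of SRCAP and 1 time in that of TBC1D5, and in 45.0% of all windows. The 3 printed windows hold 43, 30 and 48 CpG dinucleotides, against a median of 14 over all windows. That of TBC1D5 was picked for its CpG, and the other window of this gene holds 1. The windows of MDFIC, not printed, hold 15 and 17. A match says only that these letters are there, and a missing match says nothing about RUNX1 binding outside these bases.

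The widths that chose the sites were close for BRG1 and spread for RUNX1. The BRG1 peak measured 1157 bp at YWHAZ, 1148 bp at TBC1D5, 1123 bp at KLF13, 1056 bp at MDFIC, 1019 bp at HCFC1 and 1014 bp at SRCAP. The RUNX1 peak ran from 3265 bp at YWHAZ through 2647 bp at MDFIC, 2060 bp at HCFC1, 1887 bp at KLF13 and 1724 bp at SRCAP to 1645 bp at TBC1D5. The RUNX1 peak held the whole BRG1 peak at 5 members, and at TBC1D5 it held 1134 bp of 1148 bp. Over all co-occupied sites the median widths were 297 bp and 546 bp.

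The 6 sites took ranks 1 (YWHAZ), 2 (MDFIC), 4 (HCFC1), 5 (KLF13), 9 (SRCAP) and 10 (TBC1D5). The last member inside the first 10, TBC1D5, had a rank sum of 237, and the first site outside, at chr18:45456990-45457913, had 253, followed by chr17:66287315-66288508 with 270. The other 4 sites of the first 10, at chr9:20209434-20210451, chr14:105956881-105957725, chr1:14647048-14648011 and chr5:35884491-35885311, have no gene among the members. The ranking depends on using both widths: by BRG1 width alone the members ranked 19 to 44, and by RUNX1 width alone 1 to 191.

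H3K4me3, which took no part in the ranking, lay on 5 of the 6 sites. Over all co-occupied sites the share was 62.4%. Among the sites of the first 10 that are not members, those on chromosomes 9, 1 and 5 had no H3K4me3 on the BRG1 peak. The one on chromosome 14 had 376 bp. The mark is therefore not shared by the widest sites as a group. An overlap of 1 bp is also met more easily by a wide BRG1 peak than by a narrow one. It covered the whole BRG1 peak at YWHAZ, SRCAP and TBC1D5, 752 bp of 1123 bp at KLF13 and 268 bp of 1019 bp at HCFC1. KLF13 and HCFC1 share a form: H3K4me3 was called as a pair of peaks with the BRG1 peak across the gap between them. At KLF13 the pair measured 758 bp and 2432 bp, and at HCFC1 3427 bp and 715 bp. At MDFIC the nearest H3K4me3 peak, of 2046 bp at the gene's start, was 84.9 kb away.

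**Figure D1:**
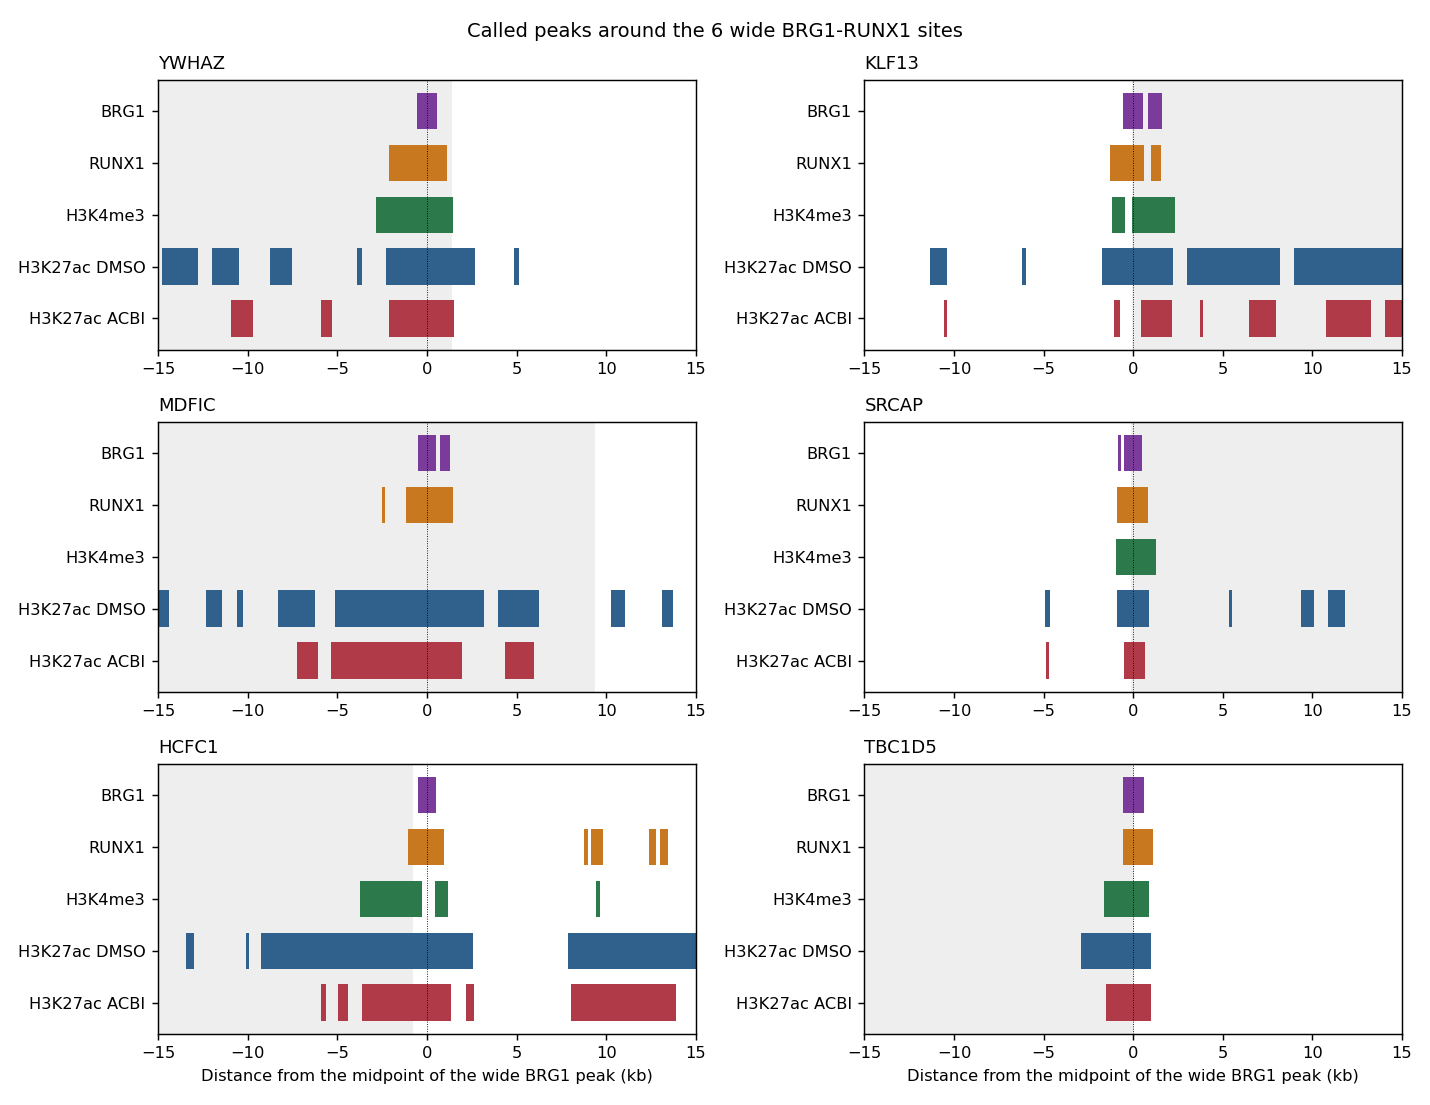
Called peaks of the 5 lists within 15 kb of the midpoint of each wide BRG1 peak, with distance in kilobases on the x axis, 1 row per list and the gene span shaded. In the KLF13 panel the ACBI row has a gap of 1158 bp over most of the wide BRG1 peak, and in the MDFIC panel the H3K4me3 row is empty.

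Each wide site lay in a single DMSO H3K27ac peak that held the whole BRG1 peak, as 83.2% of all BRG1 peaks were wholly covered in DMSO. At every member part of that DMSO peak was not called in ACBI. Only ACBI bases inside the DMSO peak were counted, so this measure cannot show a gain. At SRCAP the DMSO peak measured 1799 bp and ACBI peaks covered 1202 bp of it, in 1 piece. At HCFC1 the DMSO peak measured 11791 bp and ACBI covered 6132 bp, in 4 pieces. At KLF13 the DMSO peak measured 3963 bp and ACBI covered 2069 bp, in 2 pieces. These 3 therefore kept 66.8%, 52.0% and 52.2% of the length.

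At MDFIC the DMSO peak measured 8320 bp and ACBI covered 7092 bp, in 1 piece. At YWHAZ the DMSO peak measured 4952 bp and ACBI covered 3662 bp. At TBC1D5 the DMSO peak measured 3917 bp and ACBI covered 2521 bp. The shares were 85.2%, 73.9% and 64.4%. Of the 5164 DMSO peaks that hold a co-occupied site, 95.2% were not covered over their whole length in ACBI. The median cover of the 5164 was 61.5%, and incomplete cover is shared by most such peaks.

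The shortening was uneven between the sides. At TBC1D5 the ACBI peak began 1383 bp inside the low edge of the DMSO peak, on the side of the gene body, and ended 13 bp inside its high edge. At YWHAZ the order was the opposite, with 130 bp trimmed on the low side and 1160 bp on the high side, beyond the gene span. At HCFC1 the ACBI peak that held the site (4952 bp) began 5634 bp inside the low edge, within the gene span, and ended 1205 bp inside the high edge, with 3 smaller ACBI peaks in the trimmed stretches.

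At MDFIC the ACBI peak of 7309 bp reached 217 bp beyond the DMSO peak on the low side and stopped 1228 bp short on the high side. At SRCAP 392 bp were trimmed on the low side and 205 bp on the high side, where the gene lies. The BRG1 peak itself was still covered over its whole length in ACBI at 5 of the 6 members. Of all BRG1 peaks that DMSO covered fully, 32.2% were not fully covered in ACBI, so a count of 1 in 6 does not set the members apart.

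KLF13 was the member whose BRG1 peak was not. There the ACBI peaks, of 337 bp and 1732 bp, left 1158 bp between them (chr15:31618277-31619434) in which no H3K27ac was called, and 975 bp of this gap lay in the wide BRG1 peak of 1123 bp. ACBI H3K27ac covered 148 bp of that BRG1 peak, against 1123 bp in DMSO. The next BRG1 peak, of 777 bp and 1.2 kb into the gene, was covered over its whole length in both conditions. Whether the TGTGG pentamers of the KLF13 promoter sequence lie in this gap was not determined, since the builds differ.

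Within 5 kb of the BRG1 midpoint, a stretch of 10 kb, MDFIC had 9212 bp under DMSO H3K27ac peaks and 7582 bp under ACBI peaks, and HCFC1 had 7542 bp and 5937 bp. The values were 5938 bp and 2270 bp at KLF13 and 5396 bp and 3662 bp at YWHAZ. TBC1D5 had 3917 bp and 2521 bp, and SRCAP had 2098 bp and 1372 bp. Over all 6006 co-occupied sites the medians were 2841.5 bp (DMSO) and 1610 bp (ACBI), and 84.9% of sites had less cover in ACBI. All 6 members had less, with shares of ACBI over DMSO from 38.2% (KLF13) to 82.3% (MDFIC) and a median of 66.6%, beside a median of 60.6% over all co-occupied sites. MDFIC, the highest, is the member off H3K4me3, but over all co-occupied sites the median was lower off H3K4me3 (55.8%, n = 2259) than on it (63.0%, n = 3747).

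In DMSO cover the members were not alike: 96.0% of co-occupied sites had less cover than MDFIC and 35.2% less than SRCAP. In the share of ACBI over DMSO, 72.2% of sites were below MDFIC and 30.0% below KLF13, and the other members lay between them. The 4 sites of the first 10 that are not members had shares of 77.1% (chromosome 9), 19.5% (chromosome 14), 62.8% (chromosome 1) and 95.9% (chromosome 5). Those on chromosomes 9, 1 and 5 are off H3K4me3, like MDFIC. The 2 sites ranked next, both on H3K4me3, had 87.4% and 56.1%. Both KLF13 at 38.2% and the chromosome 14 site at 19.5% are on H3K4me3, as are YWHAZ, HCFC1, SRCAP and TBC1D5, whose shares were higher.

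**Figure D2:**
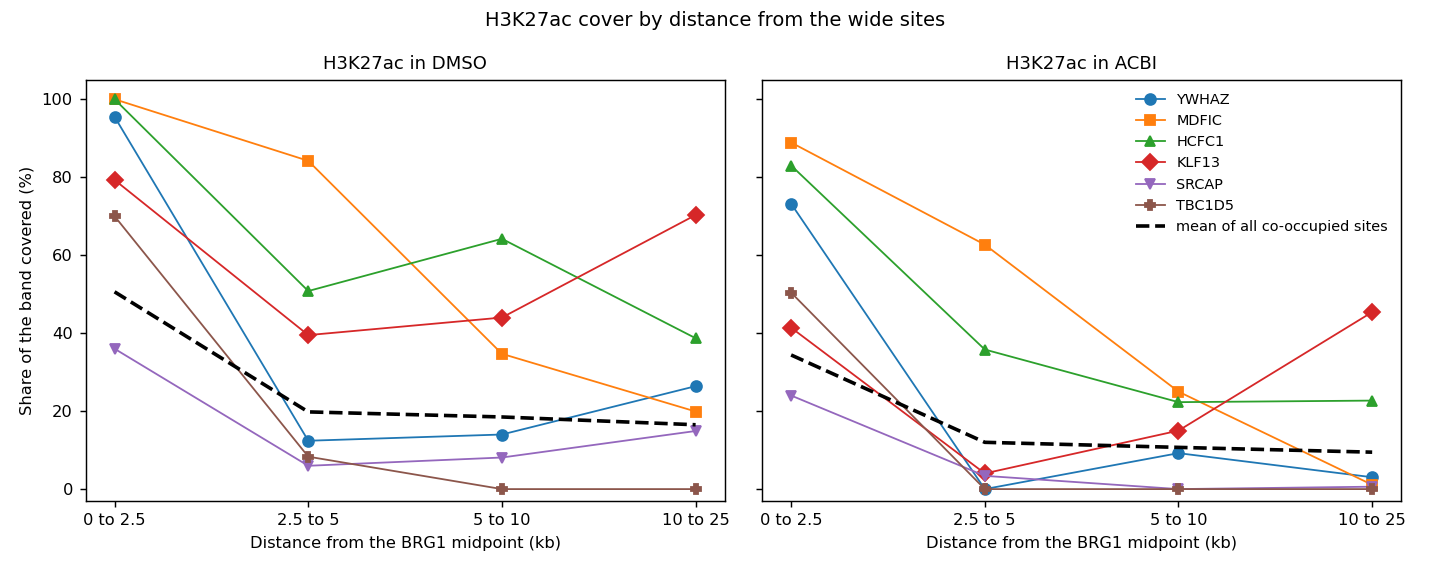
Share of each band of distance from the BRG1 midpoint (x axis, kilobases) that H3K27ac peaks cover (y axis, percent), in DMSO and in ACBI, for the 6 members and as the mean over all co-occupied sites (dashed). In the band of 0 to 2.5 kb the members range from 36.0% to 100.0% in DMSO and from 24.0% to 88.9% in ACBI, and KLF13 is high again at 10 to 25 kb.

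By distance, the cover in the nearest band was retained more than that in the farthest band at YWHAZ, MDFIC, HCFC1 and SRCAP. At MDFIC it went from 100.0% to 88.9% of the band of 0 to 2.5 kb, and from 19.9% to 1.10% of the band of 10 to 25 kb. At YWHAZ the same bands went from 95.5% to 73.2% and from 26.4% to 3.04%. At SRCAP they went from 36.0% to 24.0% and from 14.9% to 0.617%, and at HCFC1 from 100.0% to 83.0% and from 38.7% to 22.7%.

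KLF13 showed another order. Its band of 0 to 2.5 kb went from 79.3% to 41.4%, that of 2.5 to 5 kb from 39.5% to 4.02% and that of 10 to 25 kb from 70.3% to 45.4%. TBC1D5 went from 70.0% to 50.4% in the nearest band and had no H3K27ac in either list from 5 to 25 kb. The mean over all co-occupied sites went from 50.6% to 34.4% in the nearest band and from 16.5% to 9.47% in the farthest. It too was retained more in the nearest band.

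The windows held further factor peaks beside the chosen pairs. These were 11 BRG1 peaks of 165 to 777 bp (median 372 bp) and 21 RUNX1 peaks of 175 to 1190 bp (median 349 bp). Of the 11 BRG1 peaks 9 overlapped RUNX1, against 80.7% of all BRG1 peaks, and 6 lay on H3K4me3, against 61.8%. Of the 21 RUNX1 peaks 7 overlapped BRG1, against 29.8% of all RUNX1 peaks, and 8 lay on H3K4me3, against 43% of all. These counts are small, and near the shares over the whole lists.

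All 11 of these BRG1 peaks lay over their whole length in DMSO H3K27ac, against 83.2% of all. In ACBI 7 were still covered over their whole length and 4 were not, against the 32.2% given above. Of the 4, the 165 bp peak inside TBC1D5 and the 178 bp peak at SRCAP had no ACBI H3K27ac, the latter 146 bp from an ACBI peak. Both others were in the HCFC1 window. Of the 21 RUNX1 peaks 19 overlapped DMSO H3K27ac, against 83.8% of all, and 2 of these had no ACBI overlap, against 23.9% of all RUNX1 peaks in DMSO H3K27ac.

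Of the 110 DMSO H3K27ac peaks of the windows, 75 were lost, meaning that no ACBI peak overlapped them (68.2%, exact Clopper-Pearson 95% interval 58.6 to 76.7). The share over all DMSO peaks was 59.1%. By gene it was 84.0% at TBC1D5 (21 of 25), 76.5% at YWHAZ (13 of 17), 72.0% at MDFIC (18 of 25), 58.8% at SRCAP (10 of 17), 57.1% at HCFC1 (8 of 14) and 41.7% at KLF13 (5 of 12). The intervals of the lowest and the highest share, from 15.2 to 72.3 at KLF13 and from 63.9 to 95.5 at TBC1D5, overlap, and a difference between genes was not tested. Such intervals cover counting error only, and neighbouring peaks are not independent. Of the 56 ACBI peaks 8 were gained, with no DMSO overlap (14.3%, 6.38 to 26.2), against 21.4% of all ACBI peaks.

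At SRCAP the further BRG1 peak of 178 bp (chr16:30709236-30709413) sat in the same RUNX1 peak as the wide one. A second co-occupied site (chr16:30773384-30773679), 63.4 kb away in the flank, lay on an H3K4me3 peak of 1923 bp. There a DMSO H3K27ac peak of 1594 bp was covered over 1385 bp in ACBI, where the peak was wider (2091 bp). The SRCAP window had 17 H3K27ac peaks covering 15959 bp in DMSO and 9 covering 7167 bp in ACBI. Its widest DMSO peak, of 2561 bp inside the gene (chr16:30732110-30734670), had no overlap in ACBI, where the nearest peak was 484 bp away.

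At HCFC1 the window was dense, with 8 RUNX1 peaks, 6 H3K4me3 peaks and 39296 bp of DMSO H3K27ac in 74 kb. A pair of co-occupied sites lay in the low flank, on the side of RENBP, the next protein-coding gene in RefSeq. At chrX:153193661-153194081, inside a DMSO peak of 11309 bp and an H3K4me3 peak of 4531 bp, the BRG1 peak of 421 bp shared 14 bp with ACBI H3K27ac. At chrX:153200292-153200707 ACBI H3K27ac covered 225 bp of 416 bp. In both places the ACBI H3K27ac peak ended within the BRG1 peak.

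On the high side of HCFC1 a DMSO peak of 7230 bp held 4 RUNX1 peaks of 269 to 667 bp and no BRG1, and ACBI covered 5888 bp of it. In this window 24819 bp of H3K27ac were called in ACBI, and no ACBI peak was gained among 11, a count of 0 that allows a share of up to 27.3% by 3 counts of the total and 28.5% by the exact interval. The widest lost peak measured 1368 bp (chrX:153220591-153221958), inside the gene.

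At KLF13 the window was the one with the most H3K27ac, 65012 bp in DMSO against 40164 bp in ACBI. A single DMSO peak of 31872 bp in the gene body (chr15:31628012-31659883), number 67 by width among 90495, was covered over 28589 bp in ACBI by 3 peaks, the widest of 14740 bp. It held 3 RUNX1 peaks and a co-occupied site at chr15:31653730-31654002, where a BRG1 peak of 273 bp lay in a RUNX1 peak of 876 bp and stayed covered in both conditions.

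This broad peak kept 89.7% of its length, but its neighbours in the gene body kept less: ACBI covered 1705 bp of a DMSO peak of 5167 bp (chr15:31622046-31627212) and 2293 bp of one of 3897 bp (chr15:31661425-31665321). A further co-occupied site, the 777 bp BRG1 peak at chr15:31619862-31620638, lay just past the wide one. The widest lost peak measured 2219 bp, in the low flank (chr15:31598819-31601037), and held a RUNX1 peak of 331 bp without BRG1. No ACBI peak was gained among 13, which allows up to 23.1% and 24.7% by the same limits.

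At MDFIC a second BRG1 peak of 538 bp (chr7:114650414-114650951) lay in the same RUNX1 peak as the wide one, 1.0 kb away, and both stayed covered in ACBI. The gene's start, 87.0 kb away, held a RUNX1 peak of 352 bp and H3K4me3 but no BRG1 peak. The H3K27ac peak there, the widest of the window at 9924 bp (chr7:114562075-114571998), was covered over 8770 bp in ACBI in 2 pieces. The stretch between the start and the wide site held mostly short H3K27ac peaks in DMSO, and over the window 18 of 25 were lost. The widest lost one measured 1703 bp (chr7:114601050-114602752), and the 1 gained peak 329 bp (chr7:114625317-114625645).

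At YWHAZ, where the wide BRG1 peak is chr8:101964096-101965252, the low flank, toward PABPC1, held a co-occupied site 50.7 kb away (chr8:101913767-101914084), in an H3K27ac peak of 3690 bp of which ACBI covered 3102 bp. A BRG1 peak of 372 bp without RUNX1 lay on an H3K4me3 peak of 691 bp 43.7 kb away and stayed covered. Of the 17 DMSO peaks of the window 13 had no ACBI overlap, the widest being 1996 bp (chr8:101949893-101951888). All 3 DMSO peaks with a factor overlapped an ACBI peak, as did 1 of the 14 without one. The 1 gained peak measured 630 bp (chr8:101958741-101959370).

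At TBC1D5, the longest gene, the co-occupied sites stood at the ends: the wide site at the start and one at chr3:17193144-17193605, 590.6 kb away and just past the other end of the gene, with a BRG1 peak of 462 bp in a RUNX1 peak of 892 bp. The DMSO H3K27ac peak there was the widest of the window at 16046 bp (chr3:17190569-17206614), and ACBI covered 3336 bp of it. The ACBI peak over the co-occupied site was 2718 bp wide and held both factor peaks, so what was called in ACBI was mainly the part around the site. Of the 25 DMSO peaks 21 were lost, among them the only one away from the gene's ends with a BRG1 peak, of 2132 bp (chr3:17341592-17343723), 116874 bp from the nearest ACBI peak. The widest of 4 gained peaks measured 1114 bp (chr3:17475851-17476964).

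**Figure D3:**
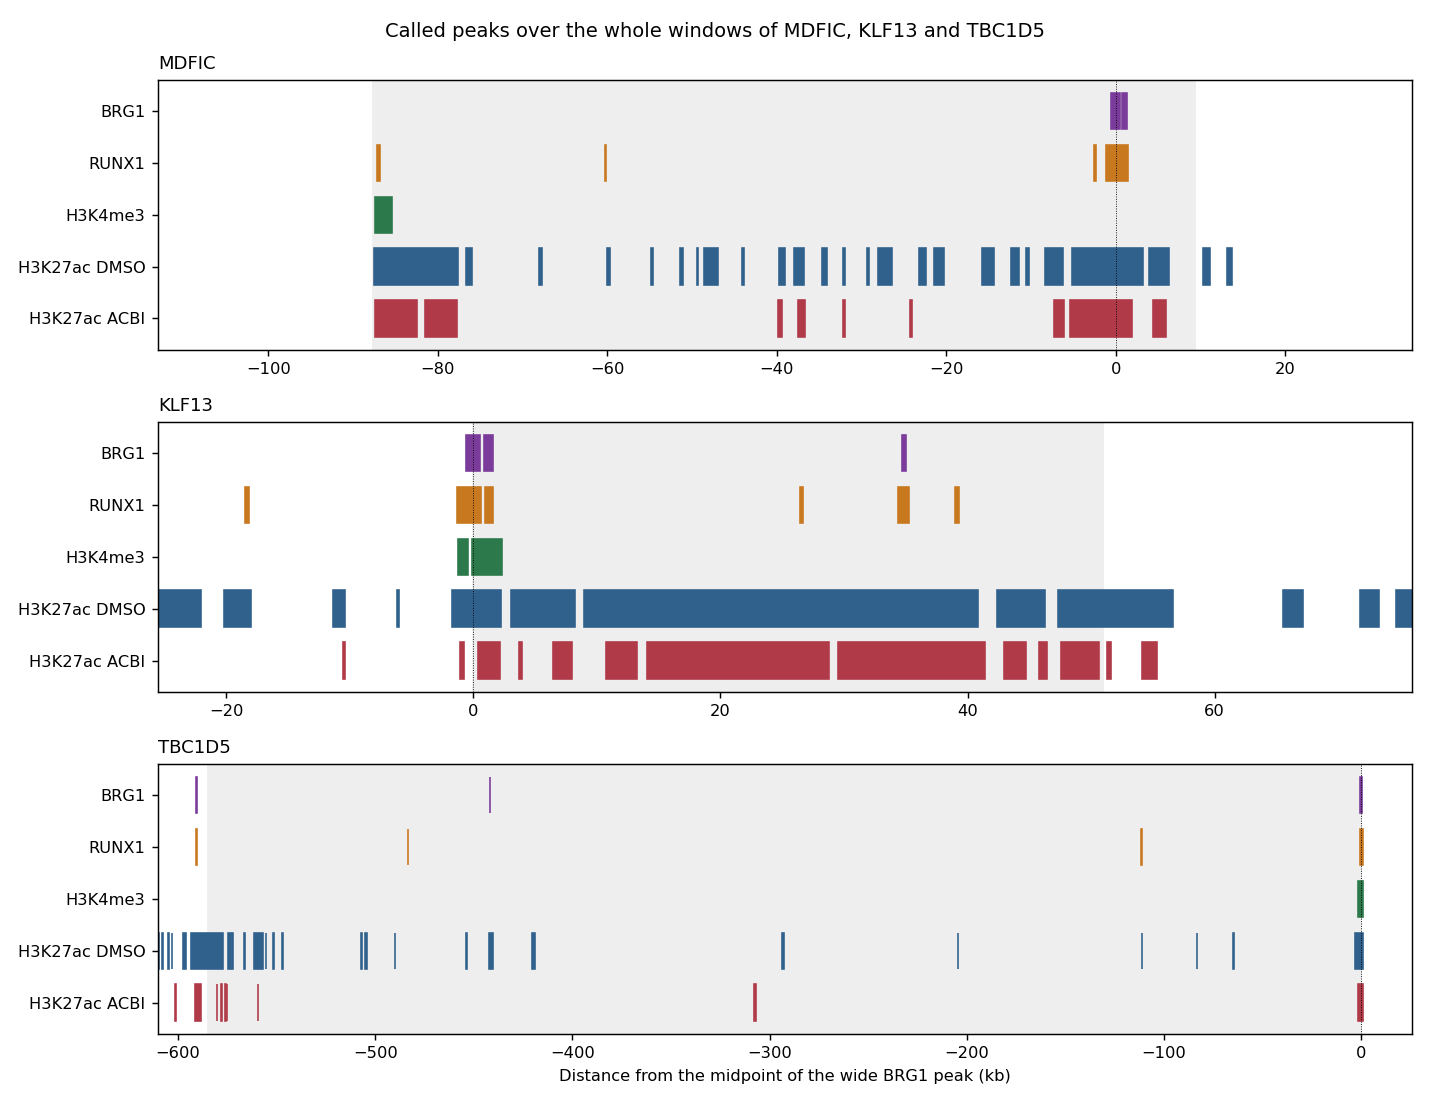
Called peaks of the 5 lists over the whole windows of MDFIC, KLF13 and TBC1D5, with distance from the midpoint of the wide BRG1 peak in kilobases on the x axis and the gene span shaded. Peaks carry a thin outline so that narrow ones can be seen. The H3K27ac peaks between the ends of TBC1D5 are mostly in the DMSO row, and the broad peak of 31872 bp in the body of KLF13 appears as 3 ACBI peaks.

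Over the windows, the H3K27ac length called in ACBI as a share of that in DMSO was 63.2% at HCFC1, 61.8% at KLF13, 55.4% at MDFIC, 45.0% at YWHAZ, 44.9% at SRCAP and 21.1% at TBC1D5. Together the windows had 217413 bp in DMSO against 110549 bp in ACBI, which is 50.8%, or 57.2% without TBC1D5. The genome was cut into tiles of 100 kb, and in those where DMSO H3K27ac filled 10 kb or more the median share was 52.7% (quartiles 37.6% and 68.4%, n = 3862 tiles), and 96.1% of tiles had less in ACBI. The tiles were picked by DMSO cover alone, which favours less cover in ACBI among them. The windows of 5 members lay between the quartiles of the tiles. TBC1D5 lay below, with 6.16% of tiles lower, but its window of 635 kb is longer than a tile and DMSO H3K27ac covered only 6.07% of it.

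**Figure D4:**
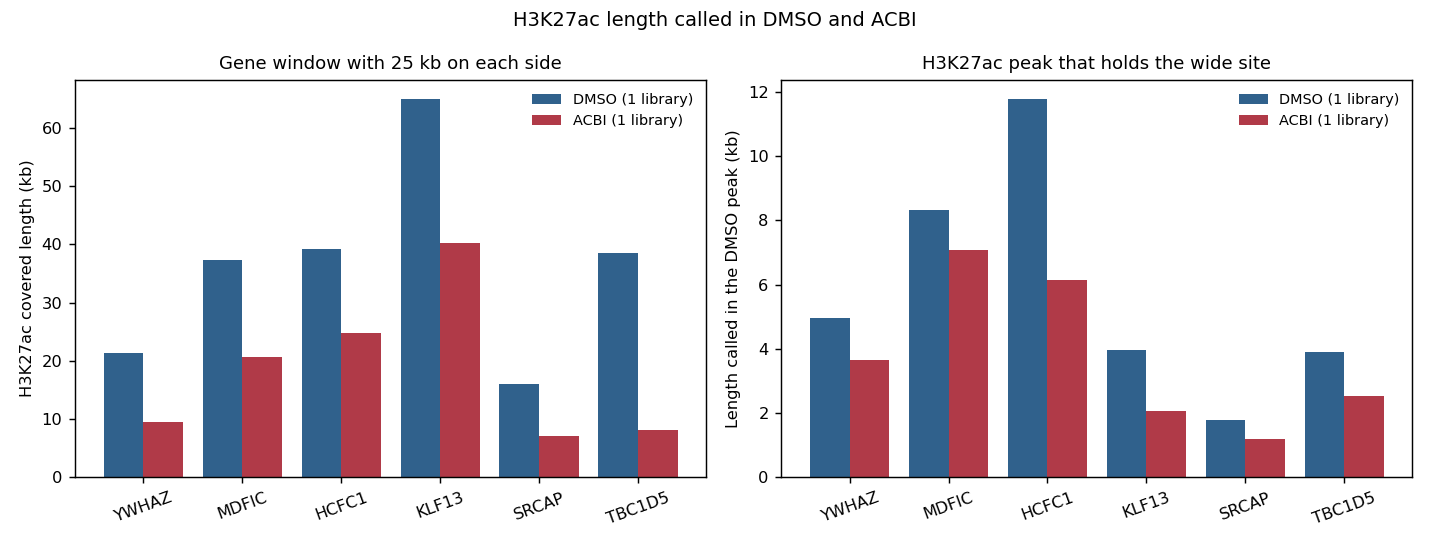
H3K27ac length in kilobases called in DMSO and in ACBI, over each gene window (left) and over the DMSO peak that holds the wide site (right), with bars for 1 library each and no error bars. The ACBI bar is the lower one for each gene in both panels. On the right only ACBI bases inside the DMSO peak count, so there the ACBI bar cannot be the higher one. At TBC1D5 the window goes from 38516 bp to 8138 bp.

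DMSO peaks that held a factor were mostly kept. Of 19 that held BRG1 or RUNX1 3 were lost (15.8%, 3.38 to 39.6), and of 91 that held neither 72 were lost (79.1%, 69.3 to 86.9). Over the genome these shares were 20.5% and 66.2%. The 3 lost ones were the peak with RUNX1 in the low flank of KLF13, the peak with BRG1 in the body of TBC1D5 and one of 203 bp with RUNX1 in the same body. The 6 peaks at the wide sites are among the 19 and were all kept, and the median width was 3917 bp with a factor and 720 bp without.

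Within one range of widths, 1 to 4 kb, 2 of 10 peaks with a factor and 19 of 27 without one were lost (20%, 2.52 to 55.6, and 70.4%, 49.8 to 86.2). The DMSO peaks at the wide sites of SRCAP, KLF13 and TBC1D5, which hold factors by the choice of members, are among the 10 and were kept. Genome-wide the shares for this range were 13.4% and 38.4%. This split was chosen after the data were seen, and the part of width in the difference between the classes was not tested further. On H3K4me3, 0 of 12 DMSO peaks were lost, which allows up to 25% by 3 counts of the total and 26.5% by the exact interval, against 14.5% of all such peaks. Of the 16 H3K4me3 peaks 15 overlapped H3K27ac in DMSO, against 92.8% of all H3K4me3 peaks, and these 15 also in ACBI, where 16% of the overlapping ones over the genome had none. The covered part of the 29735 bp of H3K4me3 was 93.5% in DMSO and 80.2% in ACBI, against 83.1% and 63.7% over all H3K4me3 peaks. The H3K4me3 and DMSO H3K27ac peaks at the 5 wide sites on H3K4me3 are among the 16 and the 12. These comparisons therefore rest in part on the chosen sites.

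**Figure D5:**
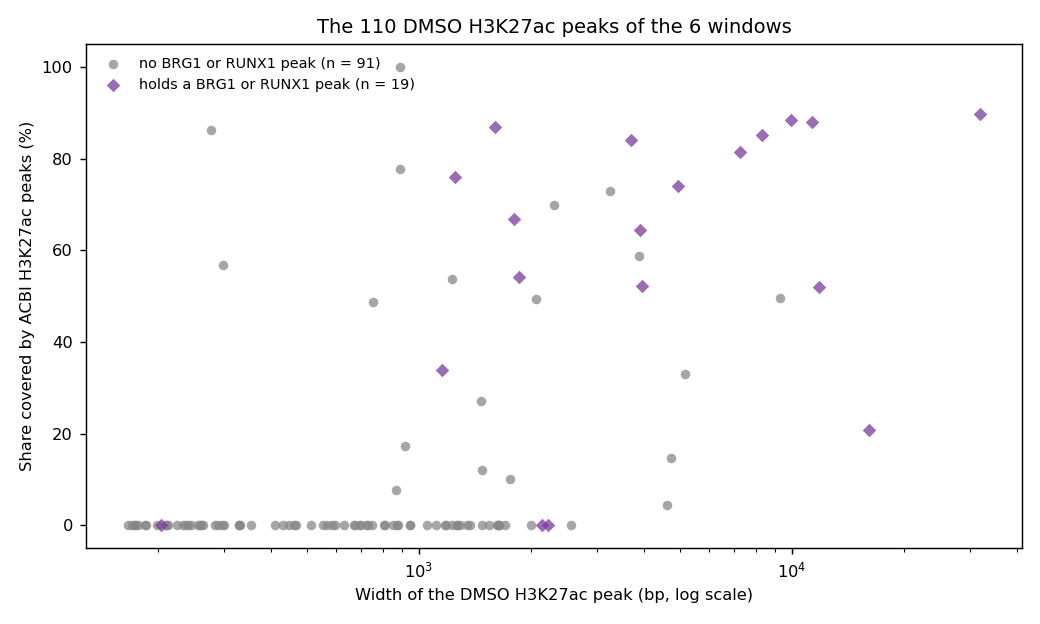
The 110 DMSO H3K27ac peaks of the windows, with width in bp on a log x axis and the share covered by ACBI peaks in percent on the y axis, by whether the peak holds a BRG1 or RUNX1 peak. Of the 91 peaks without a factor 72 lie at 0%, and of the 19 with one 3 do.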

How the data were processed

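Peak lists of 5 of the 9 samples were used, 1 library per target and condition. The 4 control libraries were not analysed here. The labels give CUT&RUN for all, and the control of RUNX1 is titled an input with IgG as its antibody. The authors deposited each list as chromosome, start, end and peak name, with no value of enrichment, so positions are the only measurement. Per the submitters' processing notes, reads were placed on hg19, and both MACS2 and SEACR were used to call peaks. Both H3K27ac lists are broad peaks called at a stated q-value limit, per the file headers. No source used here gives the aligner, the use of controls or any pooling. Depth is unknown, and the number and width of called peaks can depend on it.

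Overlaps (at least 1 bp) and covered lengths were computed with numpy 2.4.6, scipy 1.17.1 and pandas 2.3.3 under Python 3.11.15, and plotted with matplotlib 3.10.9. The interval code was checked on simulated peaks against bedtools 2.31.1. Every member was named, with each co-occupied site and the widest, widest lost and widest gained H3K27ac peak of its window. The members and measures were chosen with earlier results of these data known. Gene spans came with the list of members, since no hg19 annotation was used, and marker genes of the cell line were for the same reason not examined. Alternatives were other overlap rules, flanks, distances, minimum widths and equal list lengths.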

Additional observations from a re-analysis of the deposited data

How the results depend on the processing

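No paired analysis was possible because each condition has 1 library and no test was made. The members among the first 10 sites numbered 6 by both widths, 0 by BRG1 width alone, 2 by RUNX1 width alone and 3 by the length of the overlap. The co-occupied sites of the windows numbered 15, and 8 without flanks. Of the 27 RUNX1 peaks 12 were at least 500 bp wide. The share of DMSO H3K27ac peaks lost, 68.2%, was 80.0% when a peak under 50% covered also counted as lost, 52.2% when both lists were limited to as many of their widest peaks and 56.8% among peaks of 1 to 4 kb, the last chosen after seeing the data. The share gained, 14.3%, was 5.41% among peaks of at least 500 bp. For these results and for the H3K27ac length per window and around the sites, 17 other values stayed within 1.5 times the reported one or within its interval, and so did the 24 values for single windows. The lower H3K27ac length in ACBI held in all of these, although at the BRG1 peaks themselves only KLF13 had less. For DMSO peaks of 1 to 4 kb the genome-wide shares lost were 13.4% with a factor and 38.4% without one, both below 56.8%. No share over all DMSO or all ACBI peaks was given for the other alternative lost and gained shares. The alternative shares cannot be set against 59.1% and 21.4%, which use all peaks and an overlap of 1 bp. Depth is unknown, and with 1 library per condition a difference between the libraries and the effect of ACBI-1 cannot be told apart.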
